A study of Caenorhabditis elegans with 14 samples.

Results

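The small nuclear RNA (snRNA) class comprised 118 of the 16641 transcripts listed in a pair of small RNA tables. It was taken whole, as every transcript that the deposited tables assign to that class. It held 12 copies of SL1 RNA, 18 copies of SL2 RNA and 88 other snRNAs, which were separated by gene name. Small RNAs came from whole Caenorhabditis elegans worms of strain N2, the laboratory wild type, harvested as young adults. The snpc-4 RNAi animals ate bacteria that made double-stranded RNA against snpc-4, and the control RNAi animals ate bacteria with the vector L4440 alone. No allele or transgene is labelled in either group, and the labels differ on whether feeding began in L1 or L2 larvae. Each group has 1 library. Every difference below is therefore a difference between 2 libraries with no replicate check, and no p-value is given.

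Small nuclear RNAs are the RNA cores of the spliceosome, the machine that removes introns from pre-mRNA. In worms most mRNAs also receive a short leader at the 5′ end by trans-splicing. SL1 RNA donates the leader to most trans-spliced messages, and SL2 RNA donates another leader mainly to downstream genes of operons. Their genes, like those of the spliceosomal snRNAs, have promoters of the kind bound by the SNAP complex, and SNPC-4, once called GEI-11, is the worm's form of its largest subunit. The comparison asks how RNAs from such genes differ between snpc-4 RNAi and control animals. The tables hold no snpc-4 mRNA, and how far it was depleted was not analysed here.

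The libraries were made from inserts of 22 to 30 nucleotides (nt), per the labels, while the 115 members matched to RefSeq have annotated lengths of 68 to 187 nt. The counts therefore measure short pieces of these RNAs or other short reads from their genes, and the intact RNAs were not measured. Fewer cells of a kind and less RNA per cell cannot be told apart in whole animals. Values are read counts or counts scaled to the library total (RPM), where the deposited RPM rests on totals of 20875010 reads for snpc-4 RNAi and 20413480 for control RNAi. Intervals are at 95%. Those of counts, RPM, ratios and shares of reads are exact and cover counting error only. They may be too narrow, because no molecular identifiers separate PCR copies from independent molecules. Intervals of medians and of shares of members instead take transcripts as the units, although copies may share reads.

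Reads of the class were more abundant in the snpc-4 library, and the excess lay in SL1 RNA. The class summed to 412 RPM (404 to 421) in the snpc-4 library and 252 RPM (245 to 259) in the control library, a ratio of 1.64 (1.58 to 1.70). Without SL1 RNA the remaining 106 members had 3137 snpc-4 and 3424 control counts, a ratio of 0.896 (0.853 to 0.941). The make-up of the class turned round between the libraries. SL1 RNA held 63.6% (62.5% to 64.6%) of the class's reads in the snpc-4 library, against 33.3% (32.0% to 34.6%) in the control library. The 88 other snRNAs held 33.3% (32.3% to 34.3%) in the snpc-4 library, against 62.6% (61.3% to 64.0%) in the control library, and SL2 RNA held 3.10% in the snpc-4 library and 4.05% in the control library.

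Not every member could be compared. A log2 ratio was computed, with 1 read added to each count, where the counts of the 2 libraries averaged at least 10, a limit that 56 of the 118 members passed. Another 30 had reads below that limit and summed to 88 counts in the snpc-4 library and 97 in the control library. The other 32 had 0 counts in both libraries, which leaves room for 0.144 RPM in the snpc-4 library and 0.147 RPM in the control library (3 counts of each total). Of the 56, 14 were at least 2-fold higher in the snpc-4 library and 0 at least 2-fold lower. Among all 1109 listed transcripts above the limit, 2.61% were at least 2-fold higher and 29.4% at least 2-fold lower. In either direction, 25 of the 56 members were higher and 31 lower, against 29.7% and 70.3% of all transcripts. The 14 were 11 copies of SL1 RNA, sls-2.3 of the SL2 genes, and F15H9.5 and W07G1.8 of the other snRNAs. The median log2 ratio of the 56 was -0.11 (-0.20 to 0.38), against -0.43 over all transcripts above the limit, of which 560 are piRNAs.

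**Figure D1:**
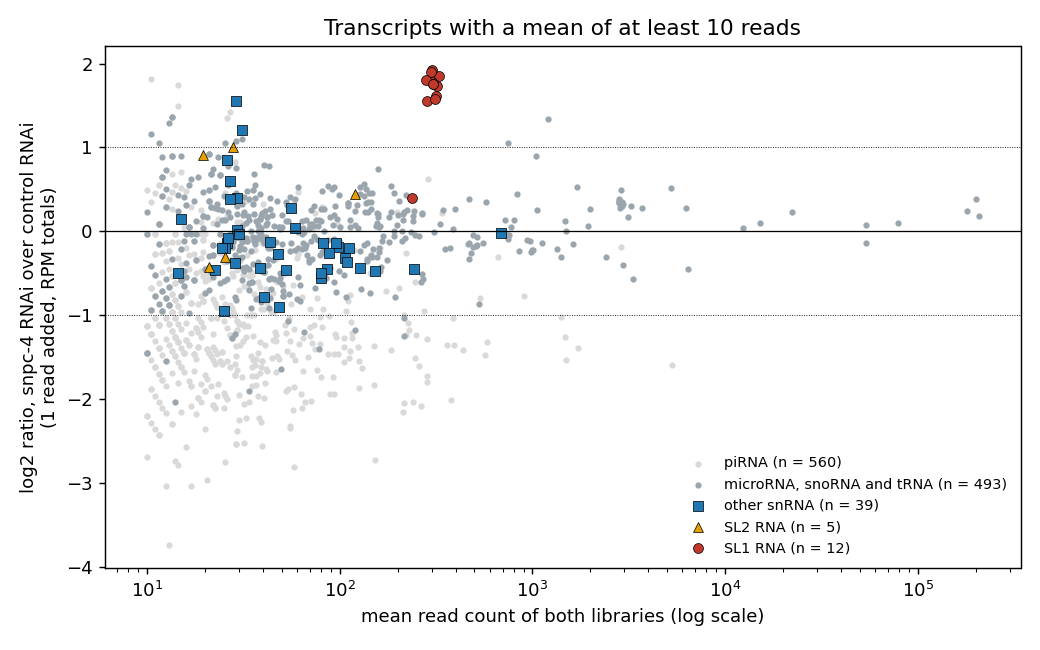
Log2 ratio of snpc-4 RNAi over control RNAi (1 read added, scaled by the RPM totals) against the mean read count of both libraries on a log axis, for every listed transcript with a mean of at least 10 counts; each point is 1 transcript and dotted lines mark 2-fold. The 11 SL1 copies form a tight cloud between 1.55 and 1.93, while the remaining SL1 copy, at 0.39, and the SL2 and other snRNA members lie among the grey points.

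SL1 RNA was higher in the snpc-4 library at all 12 copies, and 11 of them gave nearly the same values. Together the 12 had 262 RPM (255 to 269) in the snpc-4 library and 83.8 RPM (79.9 to 87.9) in the control library. The total ratio was 3.13 (2.96 to 3.30), above 1 under every scaling tried. These 11 copies ranged from 428 to 516 counts in the snpc-4 library (median 472), against 122 to 154 in the control library (median 137). Among the 397 transcripts of any class with a mean of at least 50 counts, they took ranks 1 to 11 by ratio. Of all transcripts above the limit of 10, 29.7% were higher. The copies may share reads, so they are not replicates, and their like values may repeat a single difference between the libraries.

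The highest SL1 ratio was that of sls-1.8, with 481 counts in the snpc-4 library and 123 in the control library, a ratio of 3.82 (3.13 to 4.70). Close behind came sls-1.4, with 472 snpc-4 and 123 control counts, and sls-1.9, with 516 snpc-4 and 139 control counts. The order among these copies carries little information, since their intervals overlap throughout. For sls-1.2 the counts were 439 in the snpc-4 library and 122 in the control library, for sls-1.7 they were 472 snpc-4 and 134 control counts, and for sls-1.5 they were 476 snpc-4 and 137 control counts. For sls-1.1 they were 471 snpc-4 and 136 control counts, for sls-1.10 they were 493 snpc-4 and 145 control counts, and for sls-1.6 they were 479 snpc-4 and 153 control counts. The lowest ratio of the 11 was 2.95 (2.43 to 3.59) for sls-1.11, with 428 counts in the snpc-4 library and 142 in the control library, next to sls-1.3 with 472 snpc-4 and 154 control counts.

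sls-1.12 stood apart from its sister copies in both libraries. It had 273 counts, or 13.1 RPM (11.6 to 14.7), in the snpc-4 library and 203 counts, or 9.94 RPM (8.62 to 11.4), in the control library, a ratio of 1.32 (1.09 to 1.58). In the snpc-4 library it was the lowest of the 12 copies, and in the control library the highest. The summed ratio of the other 11 copies was 3.37 (3.18 to 3.57). Because sls-1.12 was set apart by these same counts, the gap between the ratios is given as a description.

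**Figure D2:**
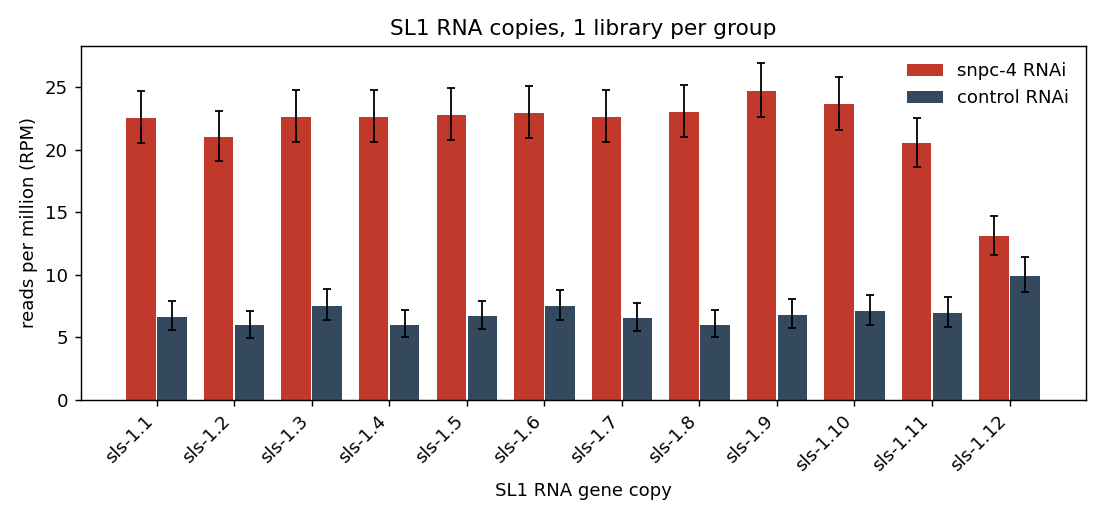
RPM of each of the 12 SL1 RNA copies in the snpc-4 RNAi library (red, left bar) and the control RNAi library (dark, right bar); bars are the value of 1 library each and whiskers the exact 95% Poisson interval. The 11 similar copies sit between 20.5 and 24.7 RPM in the snpc-4 library and between 5.98 and 7.54 RPM in the control library, and sls-1.12 has 13.1 RPM in the snpc-4 library and 9.94 RPM in the control library.

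SL1 copies are near-identical in sequence, so a short read may belong to several of them. When any pair of members above the limit with counts within 10% in both libraries was linked, and links were chained within a family, the 11 copies formed a single group and sls-1.12 stayed outside it. The ends of such a chain can differ by more than 10%. Their counts were not identical, so the copies were not credited with the same set of reads. Across all 12 copies, the variance of the counts over their mean was 8.39 in the snpc-4 library and 3.35 in the control library. Across the 11, which were picked for their like counts, it was 1.17 in the snpc-4 library and 0.923 in the control library, given as a description. Annotated length made no visible difference: sls-1.1 and sls-1.5, annotated at 68 nt, had 471 and 476 reads in the snpc-4 library, where sls-1.7, annotated at 98 nt, had 472. Single SL1 counts are therefore uncertain. The sum does not depend on how reads were split among the copies. The handling of reads with several matches is not given, so the sum, and the class total with it, may count a read more than once. Its interval would then be too narrow. All 12 copies lie on chromosome V next to a 5S ribosomal RNA gene of the rrn-4 series in RefSeq, 11 of them with such a gene on both sides. None of the 18 SL2 genes has a ribosomal RNA gene as a neighbour.

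SL2 RNA had few reads and differed much less. Its 18 copies summed to 267 counts, or 12.8 RPM (11.3 to 14.4), in the snpc-4 library and 208 counts, or 10.2 RPM (8.85 to 11.7), in the control library. The ratio was 1.26 (1.04 to 1.51), and its interval does not meet that of SL1 RNA. Scaled to the listed counts or to the microRNA total, the SL2 log2 ratio was 0.19 (-0.074 to 0.46) or 0.13 (-0.14 to 0.40), intervals that include no difference. sls-2.13 had the most reads of any SL2 copy in both libraries, with 140 counts in the snpc-4 library and 100 in the control library, a ratio of 1.37 (1.05 to 1.79). Without it the SL2 log2 ratio was 0.20 (-0.18 to 0.59).

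The other SL2 copies above the limit did not move one way by RPM. With the median ratio of all transcripts as the scale, 4 of the 5 SL2 copies above the limit were higher and 0 lower. The remaining copy, sls-2.5, had the median ratio itself and so showed no difference. About as many of all transcripts lie above as below on that scale by construction. sls-2.3 had 38 counts in the snpc-4 library and 18 in the control library, a ratio of 2.06 (1.15 to 3.84) that lies just past 2-fold. sls-2.14 had 26 snpc-4 and 13 control counts, a ratio of 1.96 (0.969 to 4.15). Lower values were found for sls-2.10, with 23 snpc-4 and 28 control counts, and for sls-2.5, with 18 snpc-4 and 24 control counts, and both of those intervals include 1. None of the 5 SL2 copies above the limit was joined to another by the 10% rule. The remaining 13 copies were below the limit, of which 6 had 0 counts in both libraries and 3 had reads in the snpc-4 library alone.

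The 88 other snRNAs, which include the spliceosomal snRNAs, were slightly lower in the snpc-4 library by RPM. They had 137 RPM (133 to 143) in the snpc-4 library and 158 RPM (152 to 163) in the control library, a ratio of 0.873 (0.830 to 0.918) that turns above 1 when the median ratio of all transcripts, piRNAs included, sets the scale. Of the 39 above the limit, 10 were higher and 29 lower by RPM, near the 29.7% higher and 70.3% lower of all transcripts, so the count does not set them apart. At least 2-fold higher were 2 of the 39, against 2.61% of all transcripts. The interval of the ratio lay above 1 for 3, below 1 for 9 and included 1 for 27. That count was not made over all transcripts, so it does not set these members apart. The median log2 ratio was -0.20 (-0.44 to -0.085) by RPM. With the median ratio of all transcripts as the scale, 26 of the 39 were higher and 13 lower, with a median of 0.23. By construction, about as many of all transcripts lie above as below on that scale, unlike the shares by RPM. Directions of single members are given by RPM. For comparison, snoRNAs had a median of -0.13 (-0.24 to 0.050) over 84 transcripts and tRNAs -0.032 (-0.078 to 0.053) over 333, while piRNAs had -1.11 (-1.18 to -1.03). MicroRNAs lay on the other side, with a median of 0.18 (0.024 to 0.27) over 76 transcripts. The share at least 2-fold lower was 0 of 39 other snRNAs and 1 of 76 microRNAs, against 8.33% of snoRNAs, 1.8% of tRNAs and 55.7% of piRNAs.

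The tables and the reference do not name the U number of most of these genes, so they were grouped by annotated length, with a new group wherever lengths jumped by more than 8 nt. Members of 185 to 187 nt, 19 genes, had 63.4 RPM (60.1 to 66.9) in the snpc-4 library and 73.7 RPM (70.0 to 77.5) in the control library, a ratio of 0.861 (0.799 to 0.927). The 13 of 156 to 170 nt had 198 snpc-4 and 258 control counts, a ratio of 0.750 (0.620 to 0.907). The 5 of 142 to 144 nt gave a ratio of 0.941 (0.857 to 1.03), from 891 snpc-4 and 926 control counts. The 14 of 117 to 126 nt had 117 snpc-4 and 157 control counts, a ratio of 0.729 (0.569 to 0.932), and the 26 of 93 to 108 nt had 220 snpc-4 and 244 control counts, a ratio of 0.882 (0.731 to 1.06). Left over were M163.13, 7 smy genes and 3 transcripts with no annotated length. These 5 length groups thus all lay below 1 by RPM, 3 of them with intervals wholly below it. With the median ratio of all transcripts as the scale, all but the group of 117 to 126 nt lay above 1.

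F10D2.13, of 142 nt, was the most heavily counted of the other snRNAs and gave nearly equal values. It had 688 counts, or 33.0 RPM, in the snpc-4 library and 684 counts, or 33.5 RPM, in the control library, a ratio of 0.984 (0.884 to 1.10). Per annotated length this was 232 RPM per kilobase in the snpc-4 library and 236 in the control library. The 12 SL1 copies ranged from 133 to 335 RPM per kilobase in the snpc-4 library and from 61.0 to 101 in the control library. The highest snpc-4 values belong to sls-1.1 and sls-1.5, annotated at 68 nt. Annotated length made no visible difference to SL1 counts, so values per kilobase are a rough scale only. K03B8.10, of 144 nt, had 130 snpc-4 and 177 control counts, a ratio of 0.718 (0.568 to 0.906), and T11F9.16, also of 144 nt, had 62 snpc-4 and 50 control counts, a ratio of 1.21 (0.822 to 1.80). Without F10D2.13, which holds most reads of its length group, the ratio of that group was 0.820 (0.677 to 0.993).

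sup-39 and sup-6, known as suppressor loci that lie in genes for the U1 snRNA, which recognises 5′ splice sites, belong to the group of 156 to 170 nt. sup-39 had 34 counts in the snpc-4 library and 63 in the control library, a ratio of 0.528 (0.337 to 0.813), among the 3 lowest of the 39 other snRNAs with a mean of at least 10 counts. sup-6 had 45 snpc-4 and 61 control counts, a ratio of 0.721 (0.480 to 1.08). All 5 members of this length group above the limit were lower in the snpc-4 library by RPM, where 70.3% of all transcripts above the limit were lower. Their log2 ratios ran from -0.90 to -0.13, and of these members only sup-39 had an interval that excludes 1. With the median ratio of all transcripts as the scale, the log2 ratio of the group total was 0.014 (-0.26 to 0.29).

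The other two of these 3 lowest ratios above the limit came from shorter members. F54D8.7, of 101 nt, had 17 counts in the snpc-4 library and 33 in the control library, a ratio of 0.504 (0.263 to 0.931). F38E11.11, of 122 nt, had 30 snpc-4 and 51 control counts, a ratio of 0.575 (0.354 to 0.920). Neither reached a 2-fold difference on the scale with 1 read added.

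Among the members of 185 to 187 nt, the most heavily counted had lower values in the snpc-4 library and the sparsely counted mostly higher ones. F15H9.6 had 208 counts in the snpc-4 library and 279 in the control library, a ratio of 0.729 (0.606 to 0.876). T14B4.10 had 110 snpc-4 and 146 control counts, a ratio of 0.737 (0.570 to 0.950). For Y54G9A.8 the ratio was 0.679 (0.489 to 0.940), from 66 snpc-4 and 95 control counts, the lowest of the heavily counted members. Intervals just below 1 were also found for F08G2.9, with 67 snpc-4 and 93 control counts, and C47F8.9, with 74 snpc-4 and 99 control counts. Y57G11C.35 (97 snpc-4 and 122 control counts), F56H6.15 (96 snpc-4 and 117 control counts), W07G1.9 (81 snpc-4 and 95 control counts), Y47H9A.2 (93 snpc-4 and 104 control counts), R05D7.6 (92 snpc-4 and 99 control counts) and F08G2.10 (79 snpc-4 and 85 control counts) were lower with intervals that include 1. F11A5.14, with 60 snpc-4 and 57 control counts, was the single one of these slightly higher in the snpc-4 library. C05G6.6, which has no RefSeq match, had 106 snpc-4 and 119 control counts.

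By contrast, 5 further members of the same length were higher in the snpc-4 library. F15H9.5 had 44 counts in the snpc-4 library and 14 in the control library, a ratio of 3.07 (1.65 to 6.07). W07G1.8 had 44 snpc-4 and 18 control counts, a ratio of 2.39 (1.35 to 4.40), and F56H6.16 had 34 snpc-4 and 18 control counts, a ratio of 1.85 (1.01 to 3.47). These were the 3 highest ratios among the 39 other snRNAs with a mean of at least 10 counts. F56H6.14, with 33 snpc-4 and 21 control counts, and W04G5.11, with 34 snpc-4 and 25 control counts, were higher with intervals that include 1.

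These 5 genes share a feature that is not a count, though it was examined after their values were seen. Within each of chromosomes I to V, the tables list the snRNA class in 2 runs of ascending RefSeq position. The sources used here do not say what sets the runs apart. The 4 members in no run are M163.13, alone on chromosome X, and 3 without a RefSeq match. First runs hold all 5 and also sls-1.12. The 13 members of 185 to 187 nt listed in second runs summed to 1135 counts in the snpc-4 library and 1408 in the control library, a ratio of 0.788 (0.728 to 0.853). The 6 in first runs, of which C05G6.4 had 0 counts in both libraries, summed to 189 in the snpc-4 library and 96 in the control library, a ratio of 1.93 with a lower bound of 1.50 and an upper bound of 2.49. Genes of equal length from the same clone differed in this way. F15H9.5 is in a first run and F15H9.6 in a second run, and the same holds for W07G1.8 and W07G1.9. F08G2.11, named here as the single sparsely counted member in a second run, had 12 snpc-4 and 17 control counts, on the same side as the other second-run members except F11A5.14.

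**Figure D3:**
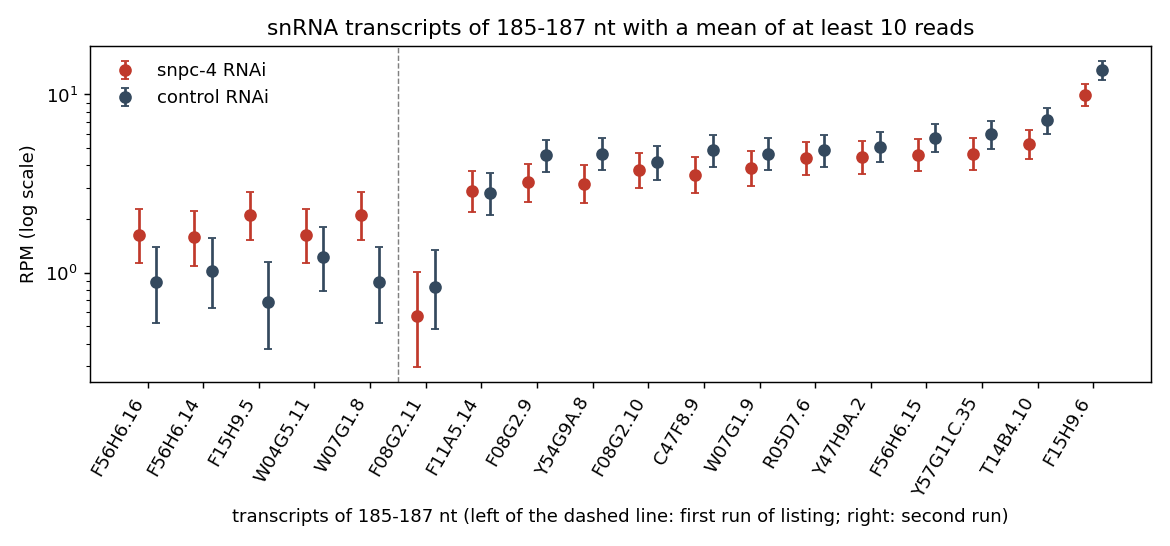
RPM on a log axis of the 18 snRNA transcripts of 185 to 187 nt with a mean of at least 10 counts, in the snpc-4 RNAi library (red, left) and the control RNAi library (dark, right); points are 1 library each, whiskers exact 95% Poisson intervals, and the dashed line separates first from second runs of listing. By RPM the 5 on the left are higher in the snpc-4 library and 12 of the 13 on the right are lower. Of all transcripts above the limit, 29.7% were higher and 70.3% lower. The runs were set after the values had been seen, so the split is a description.

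The first-run difference was not general to the class. First-run members of the other snRNAs outside 185 to 187 nt, 35 transcripts, summed to 44 counts in the snpc-4 library and 59 in the control library, a ratio of 0.729 (0.482 to 1.10). Second-run members outside that length gave a ratio of 0.885 (0.822 to 0.952), from 1387 snpc-4 and 1533 control counts. For SL1 RNA the order was the opposite, since the second-run copies had the higher ratio. First runs also held more members without reads: 25 of 52 (48.1%, 34.0% to 62.4%) had 0 counts in both libraries, against 5 of 62 (8.06%, 2.67% to 17.8%) in second runs. For SL2 RNA all 10 first-run copies were below the limit, with 7 counts in the snpc-4 library and 3 in the control library. A count of 0 is therefore read as no count in these tables and not as absence of the RNA. The part of the listing order in these differences was not tested.

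**Figure D4:**
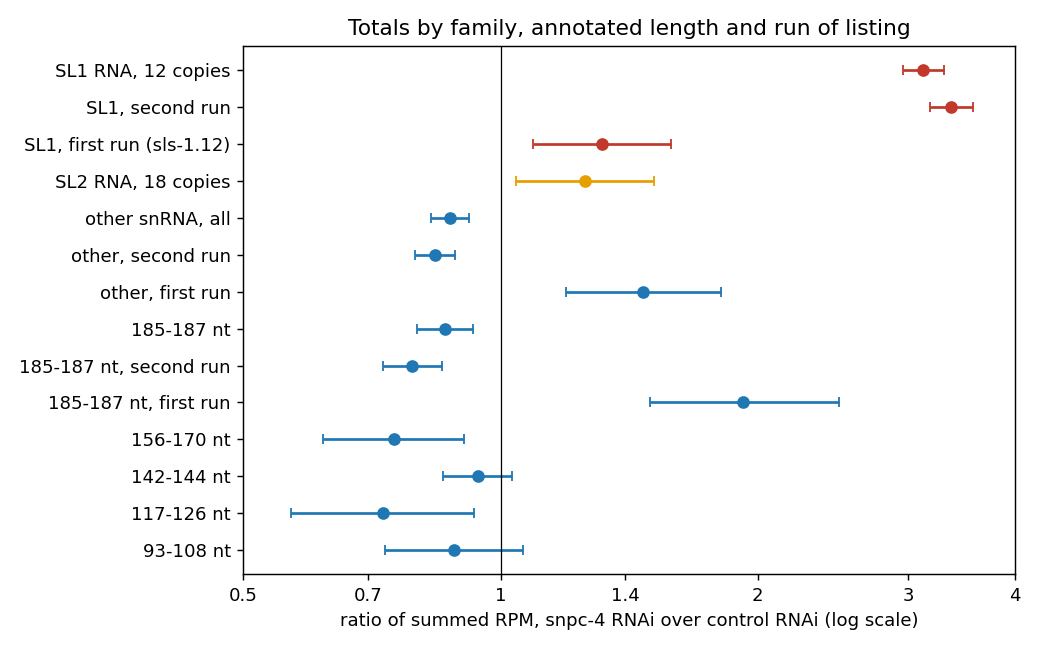
Ratio of summed RPM, snpc-4 RNAi over control RNAi, on a log axis, for SL1 RNA (red), SL2 RNA (orange) and the other snRNAs by annotated length and run of listing (blue); points are ratios of 1 library each and whiskers exact 95% intervals. SL1 RNA lies at 3.13, SL2 RNA at 1.26 and the length groups between 0.729 and 0.941, while first-run members of 185 to 187 nt lie at 1.93 and their second-run counterparts at 0.788.

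Members of the other snRNAs also fell into groups of near-equal counts. By the same linking of pairs within 10% in both libraries, 18 of the 39 above the limit fell into 6 groups, whose outermost members may lie further apart. The 4 members C47F8.9, Y54G9A.8, F08G2.9 and W07G1.9, of 185 to 187 nt and on 2 chromosomes, had 66 to 81 counts in the snpc-4 library and 93 to 99 in the control library. Their sum had a ratio of 0.737 (0.630 to 0.861). F56H6.15, Y57G11C.35 and C05G6.6 had 96 to 106 counts in the snpc-4 library and 117 to 122 in the control library, with a summed ratio of 0.817 (0.698 to 0.955). Y47H9A.2 and R05D7.6 had 92 to 93 snpc-4 and 99 to 104 control counts, and F54C8.9 and Y17G9A.85, of 101 to 102 nt, had 30 in the snpc-4 library and 29 to 30 in the control library. In the other 2 groups, of 4 and 3 members with at most 34 counts, several lengths were mixed (101 to 165 nt and 102 to 187 nt). Near-equal counts there need not mark copies of a gene. Both of these groups also hold some members of like length, and whether those share reads was not tested. Single counts of members of like length within a group are uncertain, because copies may share reads.

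SmY RNAs, which associate with trans-splicing components in nematodes, had hardly any reads. The 7 named smy genes of the class summed to 5 counts in the snpc-4 library and 7 in the control library, a ratio of 0.698 (0.175 to 2.56), so a difference was not detectable at this depth. Of these, smy-1 had 4 snpc-4 and 3 control counts, and 4 had 0 in both libraries. M163.13 on chromosome X, named after its values were seen, had 9 counts in the snpc-4 library and 1 in the control library, a ratio of 8.80 (1.22 to 386) that rests on 10 reads. Overlapping annotation touched few members: T20D3.12 (16 snpc-4 and 14 control counts) shares 16 nt with T20D3.13 (1 snpc-4 and 0 control counts), T27E4.12 and T27E4.22 share 155 nt and had 0 counts, and smy-8 and smy-10 overlap piRNAs with 0 counts.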

How the data were processed

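Read counts and RPM values per transcript were used as deposited. Per the file headers, the authors gave, for each transcript, its class, its raw read count and its RPM. That RPM equals the count divided by 1 constant per library, to within 2.98e-05 RPM, and the listed transcripts hold 5.15% of the implied total in the snpc-4 library and 4.69% in the control library. BWA is named in the submitters' processing notes. Not given in the sources used here are its version, the genome build, the counting tool and the handling of strand and of reads with several matches. The other 12 of 14 samples (chromatin immunoprecipitation and inputs) were not analysed here.

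Names and lengths came from the RefSeq gene table of WBcel235, matched for 115 of 118 members. The build of the counts is unknown, so no coordinates are printed. Sequences were not used here.

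Ratios are snpc-4 RNAi over control RNAi: exact Poisson intervals for counts, exact conditional binomial for ratios, Clopper-Pearson for shares and order-statistic for medians, at 95%. No test was run, because each group has 1 library. Named were all SL1 copies, SL2 copies with a mean of at least 10 counts, other snRNAs with a mean of at least 50, the 3 highest and 3 lowest of them among those with at least 10, and members with at least 5 counts in 1 library alone (none). Others are named for a stated reason after their values were seen. The members and lists were chosen with earlier results of these data known, and length groups and runs of listing were set after the tables had been examined. Alternatives changed scaling, minimum, pseudocount, tolerance and single members. Steps were tested on simulated data. Software was SciPy 1.17.1, NumPy 2.4.6, pandas 2.3.3 and matplotlib 3.10.9 under Python 3.11.15.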

Additional observations from a re-analysis of the deposited data

How the results depend on the processing

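Over 92 alternatives, 63 values stayed within the reported interval (for counts of members, within a factor of 3/2). Another 22 left it in either direction but kept their sign, some of them nearer to no difference, and 7 changed sign. Causes were not tested except where the alternative's construction shows them. The scale set by the median ratio of all transcripts, the runs of listing and the length groups were added after seeing the data. Against RPM, log2 ratios shift by -0.14 by listed counts, -0.20 by the microRNA total, 0.014 by the median of transcripts other than piRNAs and 0.43 by the median of all 1109 transcripts, of which 560 are piRNAs.

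On the log2 scale the SL1 total was 1.64 by RPM, 1.51 by listed counts, 1.44 by microRNAs and 2.07 by all transcripts, 1.75 without sls-1.12, which is also the second-run value, and 0.40 for sls-1.12 alone, the first-run value. The SL2 total was 0.33, with 0.76 by all transcripts and 1.19 in first runs, on 10 counts. Other snRNAs had -0.20, with -0.33 by listed counts and -0.40 by microRNAs, and changed sign to 0.23 by all transcripts and to 0.56 in first runs alone. The class total was 0.71, with 0.58 by listed counts, 0.51 by microRNAs and 1.14 by all transcripts, and changed sign to -0.16 without SL1 RNA. By all transcripts the sign also changed for lengths of 185 to 187 nt (0.21), 156 to 170 nt (0.014), 142 to 144 nt (0.34) and 93 to 108 nt (0.25). Members at least 2-fold lower numbered 0 by RPM, 2 by listed counts or microRNAs, and 3 with a minimum mean of 1 count. Those at least 2-fold higher were 11 to 17 against 14. Shares of all transcripts at these altered settings are not given, so the altered counts do not set the class apart. Near-equal groups numbered 7, 9 within 5% and 6 within 20%. No paired analysis was possible because each group has 1 library. Depth limits members with few reads.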
